A study of Mus musculus with 4 samples.

Results

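The antioxidant enzymes and the targets of NRF2 were examined in pancreatic islets depleted of Tafazzin, the mitochondrial transacylase that remodels cardiolipin. The members are 34 genes chosen by symbol, and all 34 were found among the 24940 genes of the deposited table. Islets, the endocrine cell clusters of the pancreas, came from male mice aged 3 to 4 months. Replicates 1 and 2 came from non-transgenic control mice, and replicates 3 and 4 from mice with a Tafazzin knockdown, which makes 4 libraries. Mice of both genotypes ate the same low-fat chow, and each library pooled about 300 islets of 2 to 3 animals. The labels do not describe the construct behind the knockdown, and since the controls carried no transgene, its presence and the loss of Tafazzin cannot be told apart. Each library is a separate pool, so the spread between replicates is a spread between pools of mice.

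Cells remove superoxide in steps. Superoxide dismutases turn it into hydrogen peroxide, and catalase, glutathione peroxidases and peroxiredoxins then reduce the peroxide. Glutathione and thioredoxin supply the electrons, and both are recharged from NADPH. The transcription factor NRF2, encoded by Nfe2l2, is held down by KEAP1 and, once released, raises many genes of this system through a DNA motif called the antioxidant response element. Beta cells are known for low catalase and low glutathione peroxidase activity and lean on the thioredoxin and peroxiredoxin branch.

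Expression is given in units of 1 read per 10000000 of the library, with no scaling by gene length. Library totals ran from 68823160 to 81073502 reads, but 1 ribosomal RNA row held 41.6% to 42.6% of them. Outside the 13 most abundant rows other than the insulin genes, 4320910 to 4962798 reads remained. A unit corresponded to few reads: 1 read was worth 0.123 to 0.145 units. Control replicate 2 was low as a whole, with a size factor (the library's median ratio to the typical library) of 0.851 against 1.04, 1.08 and 1.06 in the other libraries. The median log2 fold change over the 13531 genes tested was 0.17, and log2 fold changes below are given relative to it, with their standard error (SE), on the log2(value + 1) scale. Each limma p-value refers to the change before this shift. Taz, which encodes Tafazzin, stood at 23.1 and 15.4 units in control islets against 13.8 and 12.7 after knockdown, lower in both knockdown libraries but not past the test (adjusted p = 0.529 by limma). Islet identity was plain, with Ins2 at 58452 and 46108 units in control islets against 48195 and 51995 after knockdown.

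Of the 34 members, only Sod3 differed between the groups past the threshold. It was higher in the knockdown islets, and no member was called lower. Sod3 had 4 reads in each control library and entered the test only through the knockdown libraries. With no filter on low values it was not called (adjusted p = 0.0508 by limma). Of all genes tested, 2.49% were called higher and 0.0443% lower (limma, adjusted p under 0.05), so that 1 of 33 tested members is near the share of the table as a whole. The same shares stand beside the limma counts of 0 in smaller groups of members below. Before adjustment, 5 members had a p under 0.05 in the higher direction (Sod3, Nqo1, Slc7a11, Cat and Txn1) and 1 in the lower (Glrx), beside 9.88% and 0.466% of all genes. By edgeR 4 members had such a p in the higher direction (Sod3, Nqo1, Slc7a11 and Txn1) and 3 in the lower (Glrx, Txnip and Keap1), beside 6.54% and 3.75%. The remaining member, Gpx7, lay under the minimum mean of 1 unit and was not tested.

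Across the tested members the median log2 fold change was 0.05, with 19 above and 14 below the median of all genes. The values ran from -0.68 for Glrx to 1.68 for Sod3, whereas 90% of all genes lay between -0.42 and 0.65. Leaving aside Sod3 and Gpx8, both at low levels, the 95% intervals of the other 31 tested members lay within -1.18 and 1.32, that is, between 0.441-fold and 2.49-fold. Both knockdown libraries stood above both controls in 17 of 33 members and below them in 2, beside 34.9% and 4.49% of all genes. After median-ratio scaling, which removes the offset of control replicate 2, the members split into 9 and 9, beside 20.4% and 20% of all genes. The 9 lower ones were Sod1, Gpx4, Txn2, Txnip, Hmox1, Srxn1, Keap1, Glrx and G6pdx, of which only Gpx4 and Glrx were so before scaling. Sod3 alone was called higher by edgeR, by DESeq2 and by limma on scaled values, beside 1.29%, 0.613% and 1.12% of all genes, and 0 members were called lower, beside 0.148%, 0.0813% and 0.155%. Without the mean-variance trend 2 members were called higher, beside 3.9% of all genes.

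Single libraries decided the number of members called. It was 6 when control replicate 1 was left out, 3 when control replicate 2 was, 0 when knockdown replicate 3 was and 1 when knockdown replicate 4 was, beside 9.36%, 2.67%, 0.207% and 2.39% of all genes. With scaling it was 0 without either control or without knockdown replicate 3, beside 0%, 0.547% and 0.333%, and 2 without knockdown replicate 4, beside 2.45%. Control replicate 2 held the lowest value in 24 of 33 members, as it did in 63.0% of all genes tested.

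**Figure D1:**
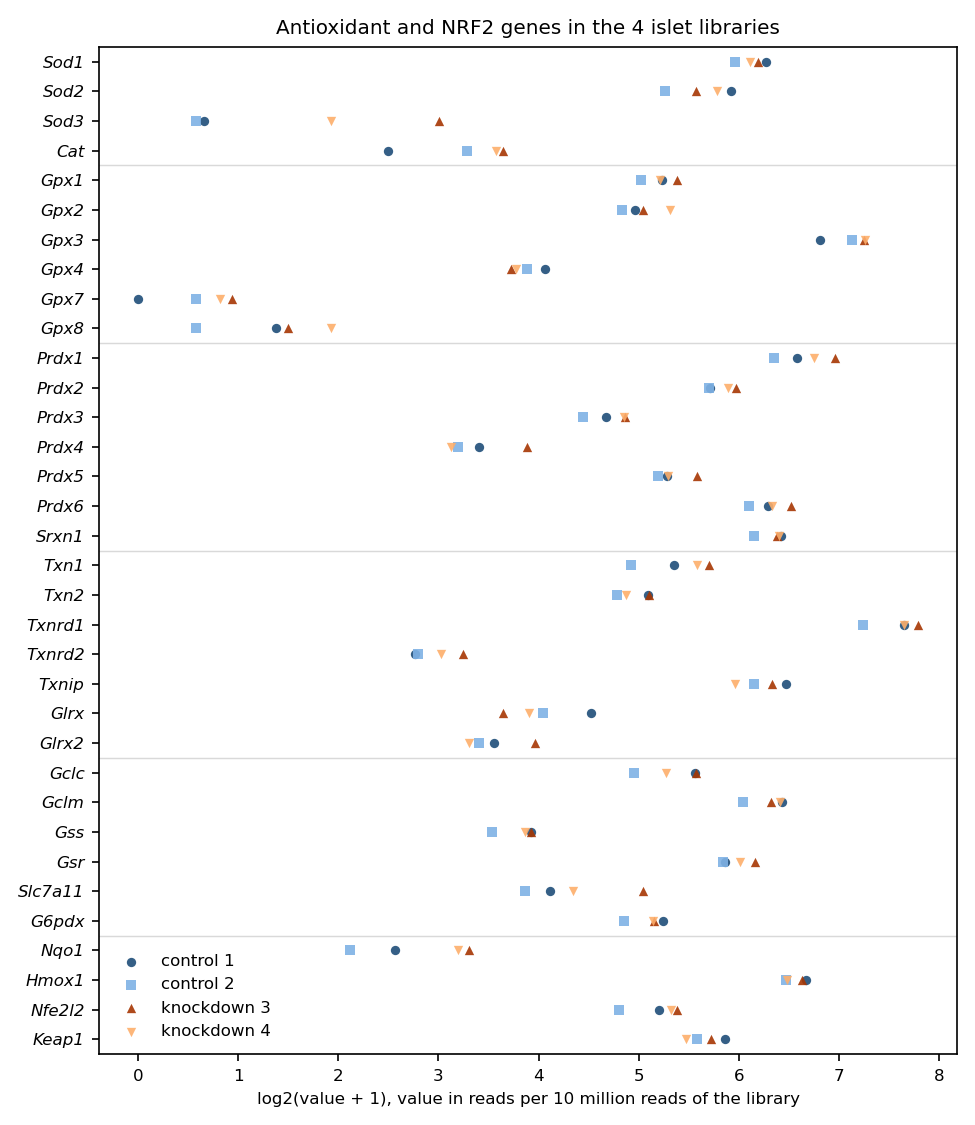
Each row is 1 of the 34 members, grouped by role, and each point is 1 library, on a log2(value + 1) axis with values in reads per 10000000 reads. The points of most genes lie close together, with the light blue square of control replicate 2 often lowest, while the points of Sod3 separate by group.

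**Figure D2:**
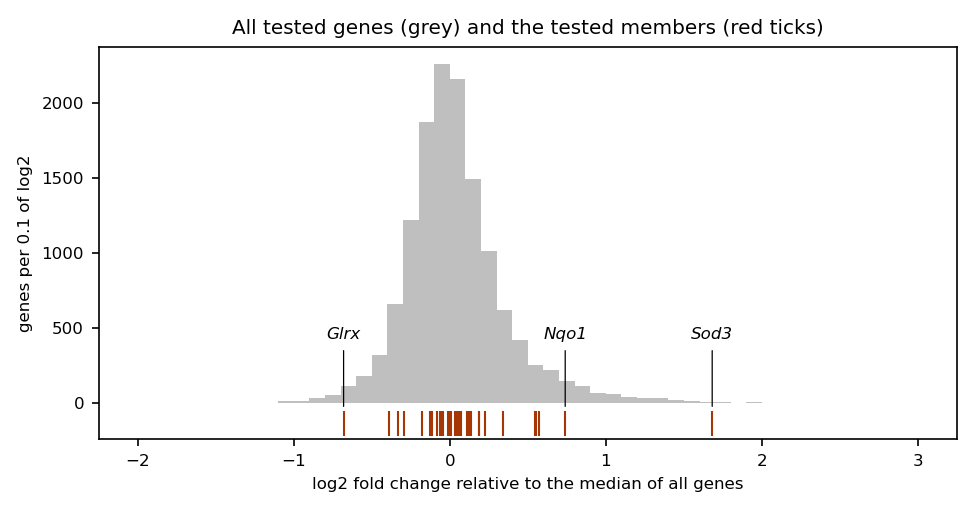
Grey bars count all 13531 tested genes by log2 fold change relative to their median, and red ticks mark the 33 tested members. The members lie across the centre of the distribution, with Sod3 at 1.68 to the right and Glrx at -0.68 to the left.

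Among the enzymes that remove superoxide, Sod3, the secreted dismutase that binds the extracellular matrix, was the member that rose. The row spans the whole gene (NM_011435, mm10 chromosome 5, 52363804 to 52369738, plus strand). It stood at 0.581 and 0.493 units in control islets against 7.04 and 2.80 after knockdown, from 4, 4, 54 and 22 reads. Both knockdown libraries lay above both controls, with replicate 3 highest. Group means were 0.537 ± 0.0622 units for controls and 4.92 ± 3.00 for knockdown (SD, n = 2 per group), a ratio of 9.16. The log2 fold change was 1.68 ± 0.42 SE (adjusted p = 9.16e-04 by limma), with a 95% interval of 0.87 to 2.5. This scale understates changes at such low values, and the edgeR test on recovered reads gave 2.97 (edgeR adjusted p = 0.0150). Sod3 entered the test only through the knockdown libraries, since its control mean lay under the minimum.

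The call of Sod3 rested on knockdown replicate 3. Without that library the log2 fold change was 1.15 and it was no longer called (adjusted p = 0.924 by limma), and with no filter on low values the limma adjusted p was 0.0508. Sod3 was called after median-ratio scaling (adjusted p = 0.0322 by limma) and by DESeq2 (adjusted p = 0.0489). With scaling and control replicate 1 or 2 left out it was not (limma adjusted p = 0.425 and 0.208), nor with scaling and knockdown replicate 3 left out (0.823).

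Markers of connective tissue and vessels moved with Sod3. The summed level of 16 stellate cell and fibroblast markers was 136 to 137 units in the controls and 337 to 455 units in the knockdown, with 11 of 16 called higher, among them Lum, which passed the minimum only through the knockdown. The sum of 12 endothelial markers was 170 to 198 units in the controls and 300.3 to 390 in the knockdown, with 6 of 12 called higher. No marker of these lists was at 0 in every library. In both sums, as for Sod3, knockdown replicate 3 was highest and knockdown replicate 4 next. The sums of macrophage, duct and red blood cell markers had the same order, and those of acinar and beta cell markers did not. This order was not particular to Sod3, since the members Nqo1, Slc7a11, Cat and Txn1 had it too. How many of all genes had it was not counted. Knockdown replicate 3 was highest in 19 of 33 members and in 38.6% of all genes tested. The part of any of these cell types in the change of Sod3 was not tested. In bulk islets more cells of a type and more RNA per cell cannot be told apart.

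**Figure D3:**
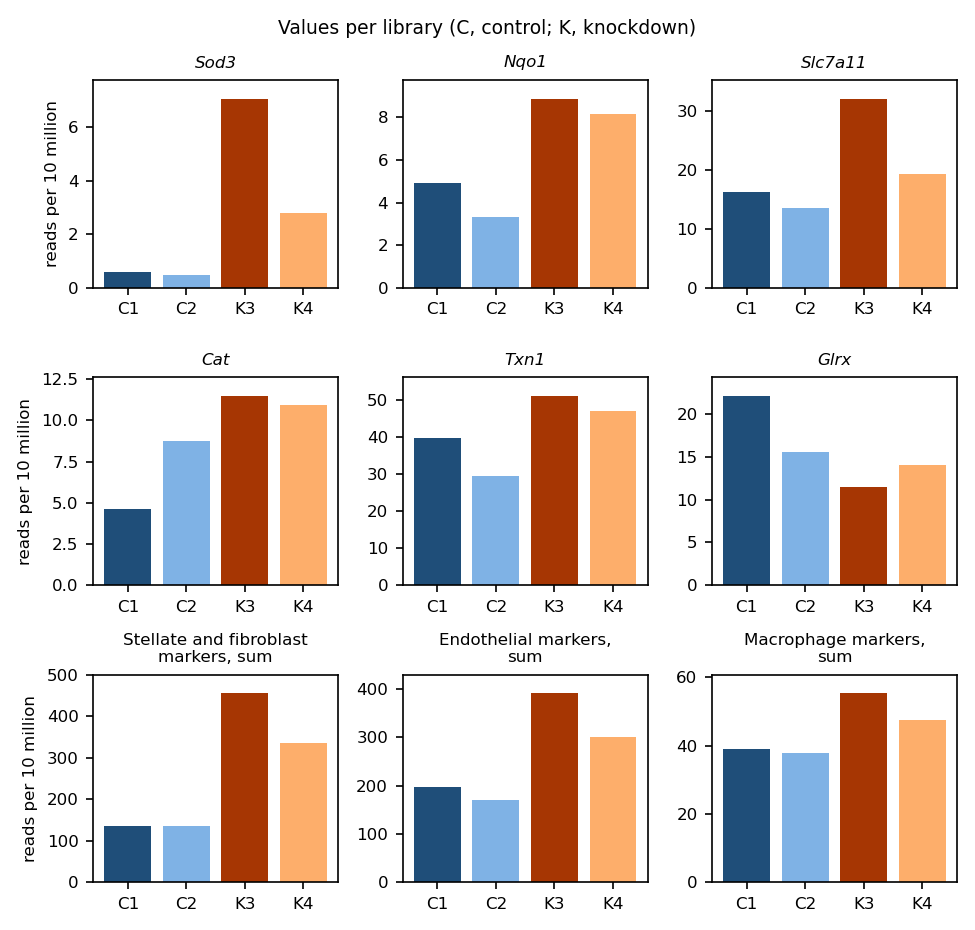
Bars give the value per library, in reads per 10000000 reads, of 6 members and of the summed stellate and fibroblast, endothelial and macrophage markers, with control replicates in blue and knockdown replicates in orange. Sod3 and the stellate, endothelial and macrophage sums are highest in knockdown replicate 3 and next highest in knockdown replicate 4. The same order holds for Nqo1, Slc7a11, Cat and Txn1, although Nqo1 and Cat are nearly level between the knockdown libraries. Glrx is lower in both knockdown libraries than in either control.

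The dismutases inside the cell were not called. Sod1, the copper-zinc enzyme of the cytosol, stood at 76.6 and 61.2 units in control islets against 72.2 and 68.3 after knockdown. Sod2, the manganese enzyme of the mitochondrial matrix and so the dismutase nearest to the respiratory chain, stood at 59.7 and 37.4 against 46.7 and 53.9 units. In both genes the groups overlapped, but after median-ratio scaling Sod1 was lower in both knockdown libraries. Sod2 had a log2 fold change of -0.08 ± 0.24 SE (95% interval -0.56 to 0.40).

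Cat, the peroxisomal catalase, was read at 4.65 and 8.76 units in control islets against 11.5 and 10.9 after knockdown. The groups did not overlap, but the gap between the controls was larger than that between control replicate 2 and either knockdown library. The log2 fold change was 0.55 ± 0.27 SE (adjusted p = 0.178 by limma). Without control replicate 2 Cat was called higher (1.08, adjusted p = 0.0235 by limma).

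The glutathione peroxidases, which reduce peroxides with glutathione, gave 0 calls in 5 tested genes. Gpx1, the main cytosolic enzyme, stood at 36.6 and 31.5 units in control islets against 40.8 and 36.1 after knockdown. Gpx2, best known from the gut epithelium, stood at 30.2 and 27.5 against 32.1 and 38.7 units, and Gpx3, the secreted plasma form, at 112 and 139 against 152 and 152 units. Gpx3 was called without control replicate 2 (0.41, adjusted p = 0.050 by limma). Gpx4, the enzyme that reduces lipid peroxides within membranes and protects cells from ferroptosis, was lower in both knockdown libraries, at 15.7 and 13.8 against 12.3 and 12.7 units. This was a log2 fold change of -0.39 ± 0.26 SE (adjusted p = 0.891 by limma).

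The endoplasmic reticulum members of the family were near the limit of detection. Gpx7 was read at 0 and 0.493 units in control islets against 0.913 and 0.763 after knockdown, from at most 7 reads. Gpx8 stood at 1.60 and 0.493 against 1.83 and 2.80 units. It lies inside Cdc20b, whose row holds 1.02 times its level, and the reads of these genes cannot be told apart.

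The peroxiredoxins, which carry the bulk of peroxide removal in many cells, gave 0 calls in 7 genes counted with Srxn1. Relative to the median of all genes they lay between -0.06 and 0.23, the narrowest range of the 6 groups of members by role. Prdx1, a cytosolic peroxiredoxin and NRF2 target, stood at 94.7 and 80.9 units in control islets against 124 and 107 after knockdown (0.23 ± 0.24 SE, adjusted p = 0.628 by limma). It was called without control replicate 1 (0.20, adjusted p = 0.0144 by limma). Prdx3, the mitochondrial matrix peroxiredoxin, stood at 24.6 and 20.7 against 28.0 and 28.0 units.

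For Prdx1 and Prdx3 both knockdown libraries lay above both controls. The same held for Prdx2, cytosolic and abundant in red blood cells, at 51.3 and 51.1 against 61.9 and 58.2 units. Prdx5, found in mitochondria, peroxisomes and cytosol, stood at 38.1 and 35.5 against 46.9 and 38.3 units, and Prdx6, which also repairs oxidized phospholipids, at 77.2 and 68.0 against 90.6 and 79.9 units. After median-ratio scaling the groups overlapped in Prdx2, Prdx5 and Prdx6 and stayed apart in Prdx1 and Prdx3. Prdx4, the peroxiredoxin of the endoplasmic reticulum, overlapped between the groups, at 9.59 and 8.14 against 13.8 and 7.76 units. Srxn1, sulfiredoxin, which restores overoxidized peroxiredoxins, stood at 84.6 and 70.1 against 82.7 and 83.7 units.

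In the thioredoxin branch Txn1, the cytosolic thioredoxin, was higher in both knockdown libraries without passing the test. It stood at 39.8 and 29.4 units in control islets against 51.0 and 46.9 after knockdown, a log2 fold change of 0.34 ± 0.25 SE (adjusted p = 0.433 by limma). Txnrd1, the reductase that recharges it, stood at 199.6 and 151 against 221 and 201 units. Both genes were called without control replicate 1 (limma adjusted p = 0.00465 for Txn1 and 0.00783 for Txnrd1). Txnip, the inhibitor of thioredoxin that glucose induces in beta cells, overlapped between the groups before scaling, at 87.6 and 70.1 against 79.6 and 61.3 units. After median-ratio scaling both knockdown libraries lay below both controls, at 84.1 and 82.3 against 73.7 and 57.8 units (edgeR unadjusted p = 0.0219, adjusted p = 0.352). Its log2 fold change was -0.33 ± 0.24 SE, and the antisense row Gm15441, which spans it, holds nearly equal values, so the source of its reads is uncertain.

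The mitochondrial members of this branch were not called. Txn2, mitochondrial thioredoxin, stood at 33.1 and 26.5 units in control islets against 33.4 and 28.2 after knockdown, and its reductase Txnrd2 at 5.81 and 5.92 against 8.48 and 7.12 units. Glrx2, mitochondrial glutaredoxin, stood at 10.8 and 9.62 against 14.6 and 8.90 units. Together with Sod2 and Prdx3, the 5 members assigned to mitochondria alone had a median log2 fold change of -0.01. Their values ran from -0.12 to 0.19 and 0 were called by limma or edgeR, with 0 at an unadjusted p under 0.05 by either. Their 95% intervals lay within 0.658-fold and 1.68-fold. Prdx5 and Gpx4, each assigned to several places in the cell, were not in this set. Their log2 fold changes were 0.03 and -0.39.

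Glrx (NM_001360151, mm10 chromosome 13, 75839885 to 75850151, plus strand), the cytosolic glutaredoxin that removes glutathione from protein thiols, was the member farthest below the median of all genes. It stood at 22.1 and 15.5 units in control islets against 11.5 and 14.0 after knockdown, so that both knockdown libraries lay below both controls. Group means were 18.8 ± 4.63 units for controls and 12.7 ± 1.78 for knockdown (SD, n = 2 per group), a ratio of 0.677. The log2 fold change was -0.68 ± 0.26 SE and did not pass the test (limma adjusted p = 0.448, 0.116 after median-ratio scaling, and edgeR adjusted p = 0.117). Only 1.16% of tested genes lay lower.

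Among the genes that make and recycle glutathione, only Slc7a11 stood away from the median of all genes. Slc7a11 (NM_011990, mm10 chromosome 3, 50364936 to 50443613, minus strand), the cystine importer of the plasma membrane that feeds glutathione synthesis, stood at 16.3 and 13.6 units in control islets against 32.1 and 19.3 after knockdown, with replicate 3 highest. The log2 fold change was 0.54 ± 0.25 SE (95% interval 0.05 to 1.04), which did not pass the test (limma adjusted p = 0.124, edgeR adjusted p = 0.226). It was called without control replicate 1 (adjusted p = 0.00943 by limma), and, with scaling, without knockdown replicate 4 (0.87, adjusted p = 0.0171 by limma).

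The enzymes downstream of the importer were within 0.07 of the median of all genes on the log2 scale. Gclc, the catalytic subunit of the rate-limiting ligase, stood at 46.2 and 30.1 units in control islets against 46.7 and 37.6 after knockdown. Gclm, its modifier subunit, stood at 85.4 and 65.0 against 78.8 and 83.9 units, and Gss, glutathione synthetase, at 14.2 and 10.6 against 14.2 and 13.6 units. In all 3 genes the groups overlapped. Gsr, the reductase that regenerates glutathione, stood at 57.2 and 56.2 against 70.7 and 63.5 units and no longer separated the groups after scaling. G6pdx, which feeds NADPH from the pentose phosphate pathway, stood at 36.8 and 27.9 against 34.6 and 34.3 units. It lies within Ikbkg on the other strand, whose row holds 2.37 times its level, and strand was apparently not used in counting.

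**Figure D4:**
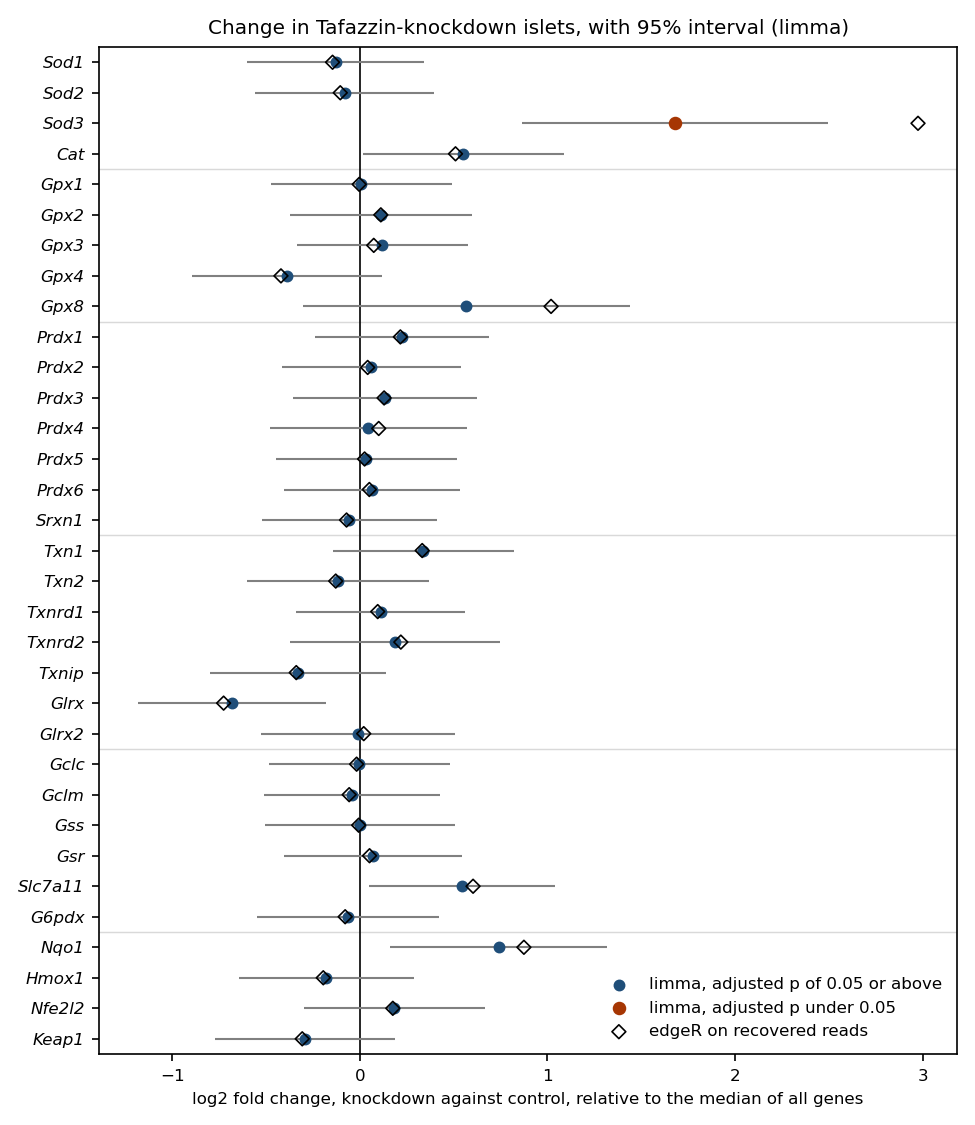
Points give the log2 fold change of each tested member relative to the median of all genes, with its 95% interval from limma, and open diamonds the edgeR value from recovered reads. Sod3 (red) is the only member called, the intervals of Nqo1, Slc7a11, Cat and Glrx leave 0 out before adjustment, and the others straddle 0.

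NRF2 itself and its repressor were not called. Nfe2l2 stood at 35.7 and 26.9 units in control islets against 40.7 and 38.9 after knockdown (0.18 ± 0.25 SE, adjusted p = 0.731 by limma), with both knockdown libraries above both controls. Keap1, the adaptor that marks NRF2 for degradation, overlapped between the groups before scaling, at 57.4 and 46.9 against 51.9 and 43.4 units (-0.29 ± 0.24 SE, adjusted p = 0.944 by limma). After median-ratio scaling both knockdown libraries lay below both controls, at 55.1 and 55.1 against 48.1 and 40.9 units (edgeR unadjusted p = 0.0353, adjusted p = 0.416). Transcript levels do not report the NRF2 protein, whose amount is set largely by its degradation.

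Neither of the classical NRF2 targets Nqo1 and Hmox1 was called. Nqo1 (NM_008706, mm10 chromosome 8, 107388225 to 107403205, minus strand), the quinone reductase long used as a readout of NRF2, stood at 4.94 and 3.33 units in control islets against 8.87 and 8.14 after knockdown, from 34, 27, 68 and 64 reads. Both knockdown libraries lay above both controls and close to each other. Group means were 4.14 ± 1.14 units for controls and 8.50 ± 0.516 for knockdown (SD, n = 2 per group), a ratio of 2.06. The log2 fold change of 0.74 ± 0.30 SE (95% interval 0.16 to 1.32) missed the threshold (adjusted p = 0.0713 by limma). After median-ratio scaling the limma adjusted p was 0.275, and the edgeR adjusted p was 0.290. Nqo1 was called without the mean-variance trend (adjusted p = 0.0444 by limma) and without control replicate 1 (0.0223). A row listed with 5 copies, Mir5098, also spans it, as a row with 2 copies, Bc1, does Gpx4.

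Hmox1, heme oxygenase, a target of NRF2 that heme and inflammation also induce, stood at 100.7 and 87.7 units in control islets against 98.1 and 88.5 after knockdown. The groups overlapped before scaling, with a log2 fold change of -0.18 ± 0.24 SE (95% interval -0.64 to 0.29). After median-ratio scaling Hmox1 was lower in both knockdown libraries. Of other members known as NRF2 targets, the log2 fold change was -0.06 for Srxn1, -0.04 for Gclm, 0.00 for Gclc, 0.11 for Txnrd1, 0.23 for Prdx1 and 0.54 for Slc7a11. By limma 0 of these 6 were called, beside 2.49% of all genes called higher and 0.0443% lower.

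The antioxidant response element was looked for by its core TGACNNNGC, on both strands, in RefSeq promoter windows (build GRCm38.p6, 250 bases before to 50 after each start). It overlaps the AP-1 motif in part. Of the 34 members 29 had a window, and 7 of these (24.1%) held a match, beside 14.0% of all genes with a window and 17.2% of those also tested. The 6 matches upstream of a RefSeq start are shown to set the motif of NRF2 beside the response of each gene, 5′ to 3′ on the strand that carries the motif, with the motif in capitals and 10 bases on each side. In order they are chr2:75704885-75704913 (minus strand), chr3:122245413-122245441 (minus), chr4:116685456-116685484 (minus), chr10:82859104-82859132 (minus), chr16:90220696-90220724 (minus) and chrX:74428919-74428947 (plus).
Nfe2l2: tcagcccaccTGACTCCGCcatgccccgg
Gclm: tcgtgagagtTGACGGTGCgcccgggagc
Prdx1: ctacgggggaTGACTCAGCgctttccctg
Txnrd1: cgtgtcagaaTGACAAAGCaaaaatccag
Sod1: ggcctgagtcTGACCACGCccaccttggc
G6pdx: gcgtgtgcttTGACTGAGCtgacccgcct
The remaining match, in Srxn1, lies after the start. The matches of Txnrd1 and G6pdx lie upstream of an alternative RefSeq start, inside the gene as the deposited table spans it. A match is a run of letters and not a shown binding site.

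The 7 genes with the motif lay between -0.13 for Sod1 and 0.23 for Prdx1. By limma 0 were called, beside 2.49% of all genes called higher and 0.0443% lower. At such shares a count of 0 in 7 genes does not tell whether genes with the motif responded. The windows of Nqo1, Slc7a11, Cat, Txn1 and Glrx, the members with an unadjusted p under 0.05 other than Sod3, held no match. Sod3, the member called, and Hmox1, Gclc, Gsr and Prdx6 had no window and were not searched. Elements farther from the start would not be seen in these windows.

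The wider pathway was read from 94 further genes in 7 lists, of which 83 were tested. By limma 5 were called higher and 0 lower (median log2 fold change 0.00), beside the same 2.49% and 0.0443% of all genes. None of the 5 was called after median-ratio scaling, by edgeR, or without knockdown replicate 3, where their limma adjusted p ran from 0.457 for Msrb1 to 1.0 for Gsta4 and Xdh.

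Of the oxidant producers, 2 of 6 tested were called higher. Cyba, the p22phox subunit of the superoxide-making NADPH oxidases, rose from 0.872 and 1.97 to 9.0 and 4.07 units (1.43 ± 0.36 SE, adjusted p = 8.36e-04 by limma). Xdh, xanthine dehydrogenase, rose from 1.16 and 2.47 to 10.4 and 4.07 units (1.31 ± 0.34 SE, adjusted p = 0.00144 by limma). In both genes knockdown replicate 3 was highest, as in Sod3. Of the 6 tested, 3 lay above and 3 below the median of all genes. Among the latter Ero1l fell from 84.9 and 71.0 to 54.8 and 64.4 units. It was not called in the main fit (adjusted p = 0.654 by limma). It was called lower by edgeR (adjusted p = 0.0289) and by limma on scaled values (adjusted p = 0.0309).

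Of 24 tested glutathione transferases and phase II enzymes, 2 were called higher. Mgst1, a membrane-bound transferase, rose from 0.872 and 1.48 to 6.0 and 4.32 units (1.34 ± 0.38 SE, adjusted p = 0.00477 by limma). Gsta4, which conjugates the lipid peroxidation product 4-hydroxynonenal, rose from 0.581 and 0 to 6.52 and 1.02 units (adjusted p = 0.0297 by limma). It entered the test only through the knockdown libraries, of which replicate 3 was far higher than replicate 4. Of 20 thiol repair and other antioxidant genes, Msrb1, a methionine sulfoxide reductase, rose from 6.39 and 4.44 to 9.91 and 12 units (0.74 ± 0.28 SE, adjusted p = 0.0463 by limma). Leaving out any library other than control replicate 1 ended the call of Msrb1, and Gsta4 was not called without control replicate 2 (adjusted p = 0.219 by limma).

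The other lists gave 0 calls by limma. Among 10 regulators of NRF2 the largest statistic was that of Maff, a small MAF partner, at 15.0 and 13.3 units in control islets against 20.6 and 20.1 after knockdown. Among 7 enzymes of NADPH supply it was that of Me1, malic enzyme, at 25.4 and 23.7 against 29.7 and 35.4 units. Blvrb, biliverdin reductase B, led the 6 genes of heme and iron handling at 2.18 and 2.34 against 6.39 and 4.07 units, and Hagh, the second glyoxalase, the 10 tested genes of glutathione precursors and turnover at 40.8 and 34.3 against 30.5 and 33.2 units. Nnt, the mitochondrial transhydrogenase that supplies NADPH in the matrix, overlapped between the groups at 36.9 and 26.1 against 27.9 and 31.3 units.

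Markers of other cells in the pools give the setting of these values. Macrophage markers summed to 37.9 to 38.9 units in the controls and 47.4 to 55.3 in the knockdown, with 2 of 8 tested called higher, Lyz2 and Cd14, and Lyz2 was tested only through its level in the knockdown. Of the 8 tested macrophage markers 6 lay below the median of all genes (list median -0.08). Their most abundant member, C1qa, was level at 16.3 and 13.6 against 15.5 and 13.2 units. Duct markers summed to 892 to 949 against 1166 to 1773 units, with 5 of 11 called higher, and their most abundant member Spp1 stood at 252 and 251 against 720 and 373 units. Among red blood cell markers 0 of 4 tested were called, their sum was 3.78 to 5.18 against 5.60 to 17.2 units, and Hbb-bt, Slc4a1 and Epb42 were at 0 in every library. Acinar and beta cell markers gave 0 calls by limma in 11 and 12 tested (edgeR called 0 and 1), with sums that overlapped between the groups. All 11 acinar and all 12 beta cell markers had log2 fold changes under 0 relative to all genes (list medians -0.41 and -0.28). After median-ratio scaling 9 of 12 beta cell markers were lower in both knockdown libraries, beside 20% of all genes. On scaled values 8 had an unadjusted p under 0.05 by limma, a count for which no share of all genes was computed. The beta cell marker called by edgeR, Mafa, an activator of the insulin genes, stood at 183 and 125 units in control islets against 113 and 122 after knockdown (edgeR adjusted p = 0.0439) and was also called by limma on scaled values (adjusted p = 0.0198). The most abundant stellate and endothelial markers, Sparc and Eng, rose from 53.5 and 52.3 to 126 and 105 units and from 28.6 and 25.0 to 69.6 and 45.5 units (by limma, adjusted p = 4.05e-04 and 0.00182). The part of these cells in the values of the members was not tested.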

How the data were processed

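Total RNA of 4 islet pools was depleted of ribosomal RNA and sequenced from directional libraries, per the labels' protocols. The tools were STAR 2.5.1b, HOMER 4.9 and edgeR, with build mm10, per the submitters' processing notes, which give no roles. The authors deposited 1 signal value per gene and library. Whole reads explained 100% of the values of every library, the highest values left out (tolerance 0.01 reads plus the rounding of the deposited values). The signal is therefore reads per 10000000 reads, without length scaling. Between 73.4% and 75.1% of nonzero read numbers were even, as when both mates of a pair are counted, so counting error is larger than the read numbers imply. The length column equals the genomic span in 99.3% of genes, introns included. Counts were apparently made over gene bodies without regard to strand. Members were not ranked by level, and ratios between overlapping rows and the choice of the most abundant markers rest on values without length scaling.

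Tested genes had a mean of 1 unit or more and spanned 200 nt or more. The test was done with limma 3.58.1 (R 4.3.3) on log2(value + 1) with a trend, two-sided, adjusted by Benjamini-Hochberg over all 13531 genes at 0.05. The prior degrees of freedom were infinite, so each gene's spread was taken from the trend. Intervals are 95% and take the median of all genes as fixed. edgeR 4.0.16 (quasi-likelihood) and DESeq2 1.42.0 were run on recovered reads. The limma and edgeR fits were tested on simulated data. All members were described. Of the pathway lists the called genes were named, or the largest statistic where none was called, and of the marker lists the most abundant member. Nnt, Lyz2, Cd14, Lum, Mafa and Ero1l were added after their values were seen. The members and lists were chosen with earlier results of these data known. The plan expected length-scaled values, and limma was kept. The groups share no replicate number.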

Additional observations from a re-analysis of the deposited data

How the results depend on the processing

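Sod3 was higher under all 16 alternatives in which it was tested, all of them refits of the same 4 libraries. With every library kept, it was called with 0.1 or 5 added in place of 1, after median-ratio scaling, by edgeR, by DESeq2 and without the trend. All of these kept the minimum that Sod3 passed only through the knockdown libraries. With no filter on low values it was not called (adjusted p = 0.0508 by limma). No member was called lower in any fit of all 4 libraries. Called members numbered 0 with no filter on low values, 0 with a mean of at least 5 (Sod3 not tested) and 2 without the trend, 0 to 6 with 1 library left out, and 0 to 2 with scaling as well. Over all 33 members and the alternatives, 545 of 559 values kept their side of the threshold, 9 passed it, 5 fell back (all of Sod3), and 0 called values changed sign. Among the 545 values, 52 of 13 members changed sign without being called in either fit.

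For all genes, calls were 337 higher and 6 lower. They were 80 and 0 without the filter (the lower count), 151 and 21 after median-ratio scaling (87.8% higher against 98.3%), 174 and 20 by edgeR, 161 and 18 by edgeR on numbers of reads divided by 2 (added after seeing the data), 83 and 11 by DESeq2, and 528 and 16 without the trend. Leaving out 1 library gave 28 to 1266 higher and 3 to 59 lower, and with scaling 0 to 331 (74 without control replicate 2, 45 without knockdown replicate 3) and 0 to 68 (49 without knockdown replicate 3). Pathway calls were 5 higher. They were 0 with no filter, with a mean of at least 5, after scaling, by edgeR in both forms and by DESeq2, 7 without the trend, 0 to 11 with 1 library left out and 0 to 4 with scaling as well. Pathway genes called lower numbered 1 after scaling and by edgeR in both forms (Ero1l, an oxidase of the endoplasmic reticulum), 0 to 1 with 1 library left out and 0 to 2 with scaling as well. Marker calls were 24 higher and 0 lower. They were 11 higher with no filter, 12 higher and 1 lower by DESeq2, 1 lower after scaling and by edgeR, 4 to 27 higher and 0 to 11 lower with 1 library left out, and 0 to 24 (10 without control replicate 2, 8 without knockdown replicate 3) and 0 to 11 with scaling as well. The cause of these shifts was not tested. No paired analysis was possible because the groups share no replicate number. With 2 pools a group, a p that misses the threshold does not show that a member was unchanged.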
